A study of Mus musculus with 16 samples.

Results

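Wild-type mouse embryonic stem cells (ESCs) were set against wild-type mouse embryonic fibroblasts (MEFs), as a description of the identity of the 2 cell types at baseline. The comparison uses 4 of the 16 libraries of the series: ESC wild type 1 and 2, and MEF wild type 1 and 2. The labels give all 4 the wild-type genotype and name no treatment, line, strain, sex, embryonic stage, passage, medium or feeder layer. The other libraries carry a knockout or a whole-locus deletion of Actb (ESCs) or Actg1 (MEFs), or a floxed or knocked-out Kindlin-2 gene in kidney fibroblasts, and they serve here only as a check where named. Whether the libraries of a pair came from separate cultures is not stated, so the spread between them may be technical.

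The genes compared were the 12932 protein-coding genes, joined by Ensembl identifier, that have a value in the table of each cell type. Protein-coding genes number 15037 in the ESC table and amount to 14148 in that of the MEFs. Because the 2 tables were normalised separately, each value was divided by the summed protein-coding value of its library and multiplied by 1000000. These levels are given below as ppm, parts per 1000000 of the protein-coding sum. No test was run between the cell types, for the same reason. A gene was called higher in a cell type when each of its 2 libraries was at least 8-fold above each library of the other, after 1 ppm was added to every level, so the groups do not overlap for any called gene. Cell type, table, line of origin and culture cannot be told apart in this design. A fold below is a ratio of mean levels, and it is printed only where the lower cell type had a mean above 3 deposited units. Where both libraries of the lower cell type were at 0, "at least" marks a bound taken from a floor of 3 deposited units in each of them, and it covers counting error only. In bulk samples, fewer cells that express a gene and less RNA of it per cell cannot be told apart.

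ESCs are the cultured counterpart of the inner cell mass and epiblast, and they self-renew while keeping the capacity to form every tissue of the embryo. A small network of transcription factors, among them OCT4 (Pou5f1), SOX2 and NANOG, holds this state, and in mouse cells the cytokine LIF and its effectors support it. MEFs are adherent mesenchymal cells grown from the minced embryo: they secrete and remodel extracellular matrix, pull on it through actin stress fibres, and commonly keep a Hox pattern that reflects their place of origin in the body.

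Large differences ran in both directions and took a small part of the genes. In ESCs 433 of 12932 genes were called higher, which is 3.35% of those compared, and in MEFs 522, which is 4.04%. Together they made up 7.38% of the genes. By contrast, 7951 genes (61.5%) lay within 2-fold, and the median log2 difference (ESC minus MEF) over all 12932 genes was 0.12. Between the libraries of a pair, 2 genes differed by 8-fold or more in ESCs and 0 in MEFs. Among genes with a mean of at least 5 ppm, log2 levels correlated across genes at 0.989 between the ESC libraries, at 0.997 between the MEF libraries, and at 0.563 to 0.572 between cell types. The summed deposited values per library were 16022043 to 16072560 in ESCs and 21507900 to 21718732 in MEFs, and protein-coding genes took 75.05 to 77.5% and 81.5 to 83.1% of them.

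**Figure D1:**
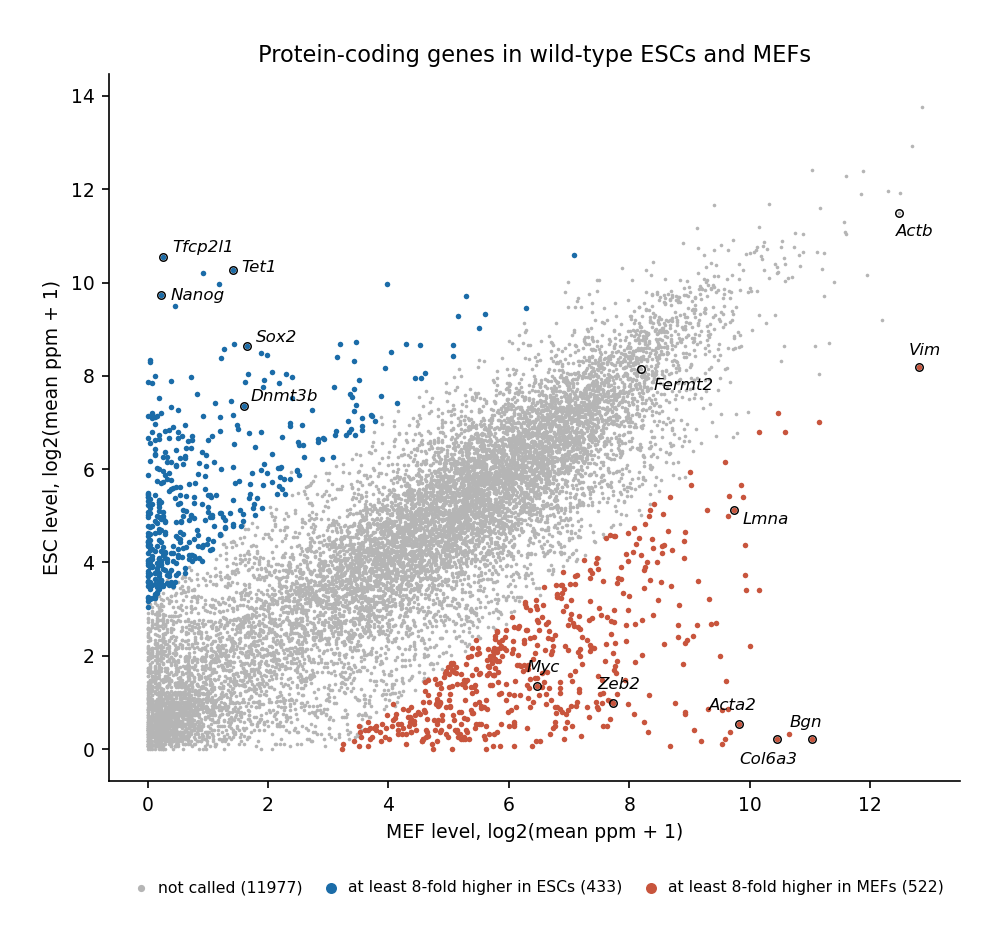
Mean level of each of the 12932 protein-coding genes in MEFs (horizontal axis) and ESCs (vertical axis), both as log2(mean ppm + 1) of 2 libraries. Grey points were not called, blue points are the 433 genes called higher in ESCs, and red points the 522 called higher in MEFs.

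The 2 sets of genes lay about as far apart, with median gaps of 4.03 (higher in ESCs) and 4.11 (higher in MEFs) on the log2 scale, and differed in level. Of the genes higher in ESCs, 221 passed a gap of 16-fold, 49 of 64-fold and 8 of 256-fold, counted from the lowest ESC library to the highest MEF library. Of those higher in MEFs, 289, 71 and 15 did so. The MEF genes had a median level of 78.3 ppm in MEFs and the ESC genes 39.3 in ESCs. Together the MEF genes took 9.54% of the protein-coding sum in MEFs against 0.324% in ESCs, and the ESC genes 4.28% in ESCs against 0.122% in MEFs. At the edge of the rule, Sox15 stood just inside with 7.46 and 12.1 ppm in ESCs and 0 and 0.0565 in MEFs, and Plxnb1 just outside with 13.2 and 13.3 ppm in ESCs and 0.784 and 0.508 in MEFs. On the MEF side, Slurp1 was just inside with 10.4 and 10.4 ppm in MEFs and 0.401 and 0.416 in ESCs, and Tcf19 just outside with 89.7 and 88.4 ppm in MEFs and 9.63 and 10.2 in ESCs.

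A further 2105 protein-coding genes are listed in the ESC table alone and 1216 in the MEF table alone, and these have no value in the other cell type here. Each listed gene reaches at least 4 deposited units in some library of its table. At 7 ppm or more in both wild-type libraries, the level that passes the call against a value of 0, stood 331 of the ESC genes and 157 of the MEF genes. Several of the best known identity genes are among them, so they are given below as levels with no fold.

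Markers of each labelled cell type were present. The 8 pluripotency markers summed to 3247 and 3256 ppm in the ESC libraries, and the 2 of them that the MEF table lists summed to 2.69 and 1.92 in the MEF libraries. The 14 fibroblast markers summed to 6918 and 6350 ppm in the MEF libraries. Of these markers 6 are listed for ESCs, and fibronectin (Fn1) carried nearly the whole sum: without it they summed to 15.2 and 15.7 ppm in the ESC libraries, against 3638 and 3439 for the markers other than Fn1 in the MEF libraries. Some fibroblast markers were near the bottom in the MEFs as well. Dcn (decorin) stood at 0.952 and 0.791 ppm in the MEF libraries, and Lum (lumican) at 0.392 and 0.565. Thy1, a surface protein of many fibroblasts, was low in both cell types, with 2.01 and 2.16 ppm in ESCs and 0.616 and 0.169 in MEFs.

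Markers of other cell types gave mixed values, and their part in the calls was not tested. In ESCs the summed levels over both libraries were 106 to 115 ppm for primitive endoderm, most of it Lama1, and 141 to 159 for trophoblast, most of it Tfap2c, without which the trophoblast sums were 17.3 and 23.1. The primitive endoderm factors Gata6, Gata4 and Sox17 had at most 2.73 ppm in an ESC library, and Sox7 was at 0 in both. Of the trophoblast factors, Eomes had 10.4 and 11.48 ppm in ESCs and 0.504 and 0.339 in MEFs, Gata3 had 4.41 and 9.07 ppm in ESCs and 1.06 and 0.904 in MEFs, neither called, and Cdx2, Elf5 and Hand1 had at most 0.642 in an ESC library. In MEFs the primitive endoderm list summed to 430 to 438, from Dab2 and Pdgfra, and Pdgfra is also in the fibroblast list. Summed macrophage and blood markers were 80.8 to 88.99 in ESCs, of which Laptm5 made 78.9 on average. In MEFs they were 23.3 to 25.1, of which Cd14 made 21.2 on average. Endothelial markers summed to 28.7 to 32.8 in ESCs and 6.83 to 7.95 in MEFs, and keratinocyte markers to 2.01 to 3.16 and 8.87 to 9.24, with Krt14 at 0 in both ESC libraries. For skeletal muscle the sums were 11.6 to 11.8 in ESCs and 25.5 to 28.3 in MEFs, with Myod1 at 0 in both MEF libraries. Without Des the ESC muscle sums were 3.37 and 2.66, and without Acta1 the MEF muscle sums were 0.504 and 0.678. Adipocyte markers summed to 44.99 to 48.6 in ESCs and 7.45 to 8.90 in MEFs. Without Lpl the ESC adipocyte sums were 1.28 and 0.749. Cartilage markers summed to 14.9 to 18.6 in ESCs and 66.0 to 68.2 in MEFs, where Sox9 made up nearly all. Neural markers were alike in sum, 309 to 318 in ESCs and 314 to 325 in MEFs, through different genes: Stmn2 was called higher in ESCs with 191 and 181 ppm in ESCs and 8.79 and 10.3 in MEFs, and Map2 in MEFs with 266 and 278 ppm in MEFs and 4.57 and 6.24 in ESCs.

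Genes of the pluripotency network were high in the ESC libraries. Of the 19 core pluripotency genes listed, 6 have a value in both tables. Of these, 5 were called higher in ESCs, beside 3.35% of all genes. The median log2 difference over the 6 was 6.21, against 0.12 over all genes. The other 13 are listed in the ESC table alone, each at 7 ppm or more in both libraries. Nanog (ENSMUSG00000012396, chr6:122707489-122714633 on GRCm38), the homeobox factor that stabilises self-renewal, had 781 and 931 ppm in ESCs and 0.224 and 0.113 in MEFs. Sox2, the partner of OCT4 on DNA, had 419.8 and 371 ppm in ESCs and 2.46 and 1.81 in MEFs, a 185-fold difference. Fbxo15, a classic reporter gene of pluripotency, stood at 245 and 211 ppm in ESCs and 0.112 and 0 in MEFs. For the paired chromatin factors Dppa2 and Dppa4 both MEF libraries were at 0, and the ESC levels of 37.5 and 47.6 (Dppa2) and 42.3 and 40.3 (Dppa4) ppm set lower bounds of 252-fold and 245-fold. The one member not called was Mybl2, a cell cycle factor, with 415 and 419 ppm in ESCs and 107 and 101 in MEFs.

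Among the members listed for ESCs alone, Pou5f1, the gene of OCT4, had 359 and 305 ppm in the ESC libraries. Esrrb, a nuclear receptor that supports self-renewal, had 528 and 568, and the growth factor Fgf4, a target of OCT4 and SOX2, had 667 and 708. Zfp42 (REX1) stood at 317 and 237, Tdgf1, the co-receptor of Nodal, at 427 and 483, and Sall4 at 295 and 338. The lowest of the 13 was Utf1 at 12.5 and 12.6. Expressed per kilobase of exon, which allows genes to be compared, Dppa5a led the genes in this group shown here with 606 ppm per kilobase, followed by Fgf4 with 215, L1td1 with 191, Tdgf1 with 174, Pou5f1 with 148 and Zfp42 with 147, and Nanog had 382.

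Factors of the naive state, the pre-implantation form of pluripotency, were in part as far apart. Of the 7 with a value in both tables, 4 were called higher in ESCs, beside 3.35% of all genes. The median log2 difference was 4.74, and 6 more are listed for ESCs alone. Tfcp2l1 (ENSMUSG00000026380), a grainyhead-like factor downstream of LIF and STAT3, showed the largest gap of any gene toward ESCs, with 1396 and 1612 ppm in ESCs and 0.224 and 0.169 in MEFs, a 7648-fold difference. Its MEF levels lie near the floor of 3 deposited units (0.168 and 0.169 ppm), so the size of this fold is uncertain. Tbx3, a T-box factor, stood at 290.5 and 332 ppm in ESCs and 0.056 and 0 in MEFs. Pecam1, an adhesion molecule found on ESCs and on endothelium, had 152 and 153 ppm in ESCs and 0.392 and 0.452 in MEFs. The Klf factors were less far apart: Klf4, one of the reprogramming factors, had 313 and 351 ppm in ESCs and 105 and 101 in MEFs, and Klf2 missed the call with 128 and 97.8 ppm in ESCs and 11.4 and 10.3 in MEFs. Of the 10 genes of the later formative and primed states, 4 have values in both tables. Of these 1 was called higher in ESCs, beside 3.35% of all genes: Zic2 had 26.1 and 26.9 ppm in ESCs and 1.79 and 2.09 in MEFs. Otx2, which marks the exit from the naive state, was listed for ESCs alone at 8.99 and 7.57, and Fgf5, the usual primed marker, is in neither table.

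The sequence before the start of Nanog is shown because a composite of the OCT4 and SOX2 sites lies in it, and Tfcp2l1 because it holds a TATA box and had the largest gap. They are from RefSeq's promoter table on GRCm38.p6, read 5′ to 3′ on the strand of the gene up to the base before the annotated start, at chr6:122707239-122707488 (Nanog, + strand) and chr1:118627845-118627944 (Tfcp2l1, + strand). Capitals mark the match to CATTGT, any 1 base, then ATGCAAA, which lies on the reverse strand as TTTGCATTACAATG and begins 75 bases before the start, and the match to TATAAA, which begins 28 bases before it.
Nanog: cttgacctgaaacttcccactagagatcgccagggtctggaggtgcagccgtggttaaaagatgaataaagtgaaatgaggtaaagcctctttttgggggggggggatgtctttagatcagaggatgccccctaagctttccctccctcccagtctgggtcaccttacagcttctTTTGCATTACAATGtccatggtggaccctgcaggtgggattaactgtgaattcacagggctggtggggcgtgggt
Tfcp2l1: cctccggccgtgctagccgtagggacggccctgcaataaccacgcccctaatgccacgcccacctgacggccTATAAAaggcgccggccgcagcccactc
Searched on both strands of the 250 bases before the start, this composite occurred in 1 of the 9986 genes with values in both tables and a promoter entry, which is Nanog, and in 1 of the 27025 entries of the table with a symbol. The motif was chosen after the levels were seen, and a match is a description of the letters, not of binding.

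Besides the network itself, several of the largest gaps toward ESCs belonged to genes of other functions. Akap12, a scaffold of protein kinases, had 1387 and 958 ppm in ESCs and 0.784 and 1.02 in MEFs. Ckb, the brain form of creatine kinase, stood at 681 and 755 ppm in ESCs and 0.56 and 0.169 in MEFs. Slc2a3, the neuronal-type glucose transporter GLUT3, had 1051 and 942 ppm in ESCs and 1.01 and 1.52 in MEFs, and it lies beside Nanog, at chr6:122727809-122801640. Sall1, a zinc finger factor, was at 0 in both MEF libraries against 222 and 247 ppm in ESCs, at least 1390.2-fold higher. Epha4, an ephrin receptor, had 233 and 279 ppm in ESCs and 0.168 and 0 in MEFs, and Epop, a partner of Polycomb and elongin, 251 and 224 ppm in ESCs and 0.392 and 0.226 in MEFs.

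**Figure D2:**
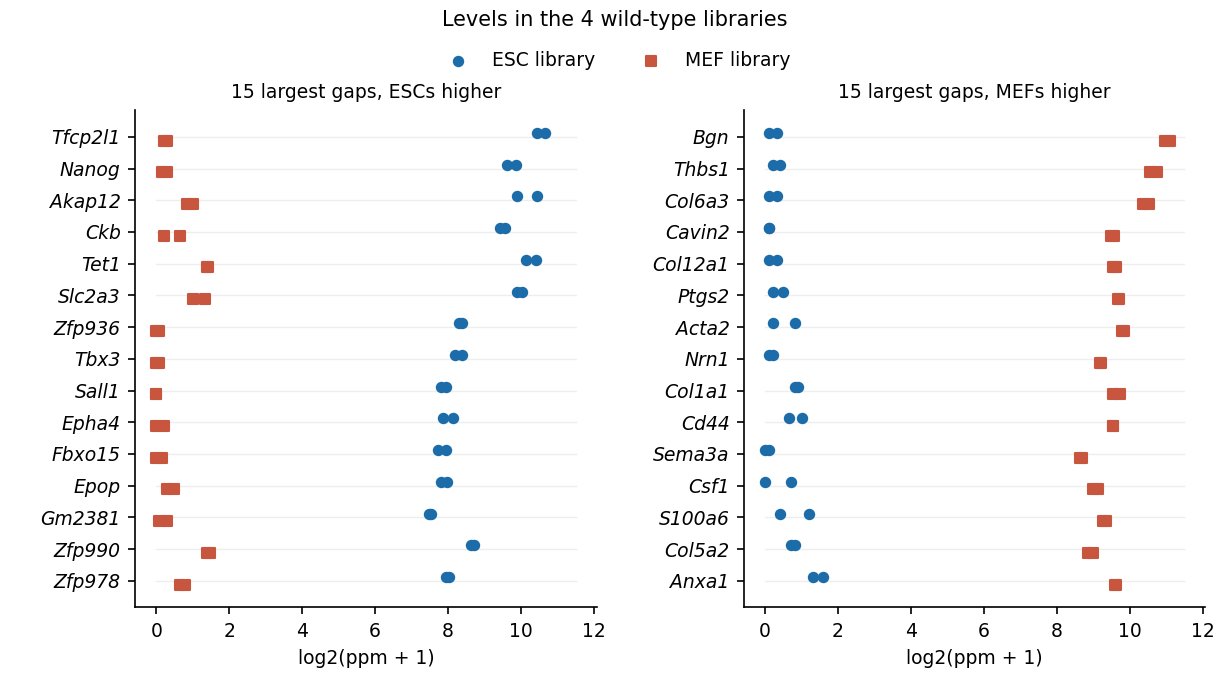
Levels of the 15 genes with the largest gap toward ESCs (left) and toward MEFs (right), as log2(ppm + 1), with 1 point per library (blue circles, ESC; red squares, MEF). The genes were chosen by this gap, so the distance between the cell types follows from the choice.

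Components of the signals that feed the network were closer between the cell types. None of the 12 LIF and BMP genes was called higher in ESCs and 2 were called higher in MEFs, beside 3.35% and 4.04% of all genes. Their median log2 difference was -1.07. The LIF receptor Lifr had 187 and 209.5 ppm in ESCs and 44.5 and 43 in MEFs, and its feedback inhibitor Socs3 had 85.1 and 85.9 ppm in ESCs and 20.4 and 20.7 in MEFs, neither far enough apart for a call. Stat3 itself was near equal, with 94 and 86.9 ppm in ESCs and 76.1 and 75.1 in MEFs. The called genes were BMP targets that inhibit differentiation factors: Id1 had 95 and 93.8 ppm in MEFs and 1.44 and 2 in ESCs, a 54.9-fold difference, and Id3 had 21.1 and 20.1 ppm in MEFs and 0.562 and 0.749 in ESCs, 31.5-fold. Of 14 genes of FGF and ERK feedback in both tables, 1 was called, near the 7.38% of all genes in either direction: Dusp6, a phosphatase induced by ERK activity, had 43.9 and 41.7 ppm in MEFs and 2.65 and 1.91 in ESCs. Etv5, another ERK-responsive gene, was not called and stood the other way, with 150.1 and 163 ppm in ESCs and 33.2 and 32.6 in MEFs, and Spry4 was low in both, with 1.77 and 1.58 ppm in ESCs and 3.13 and 2.09 in MEFs. Nodal pathway genes with values in both tables had a median log2 difference of 2.03 and 0 of 5 called, while Nodal (48.1 and 42.2), Lefty2 (126 and 153) and Foxh1 (16.5 and 15.7 ppm) are listed for ESCs alone.

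In the LIN28 and let-7 axis, which times development through a miRNA family, 1 gene was called in each direction among 8. Over all genes the shares were 3.35% higher in ESCs and 4.04% higher in MEFs. Lin28b, which blocks let-7 maturation, had 16.4 and 15.7 ppm in ESCs and 0.28 and 0.169 in MEFs, and its paralogue Lin28a is listed for ESCs alone at 90.4 and 81. Trim71, a let-7 target of the TRIM-NHL family, is also listed for ESCs alone, at 474 and 567. Hmga2, another let-7 target and a chromatin protein of embryonic mesenchyme, stood the opposite way with 793 and 809.9 ppm in MEFs and 39.8 and 43.5 in ESCs, 19.2-fold higher in MEFs.

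Genes of DNA methylation and demethylation were among the large differences. In ESCs 4 of 9 were called higher, beside 3.35% of all genes, in MEFs none, beside 4.04%, and the median log2 difference was 1.43. Tet1, which oxidises methylcytosine, had 1118 and 1362 ppm in ESCs and 1.62 and 1.69 in MEFs, and Tet2 had 599 and 641 ppm in ESCs and 34.8 and 34.7 in MEFs, 17.8-fold higher. Tet3, the third member, was not called and lay the other way, with 24.2 and 21 ppm in ESCs and 51.7 and 46.7 in MEFs. The de novo methyltransferase Dnmt3b had 161 and 166 ppm in ESCs and 1.57 and 2.48 in MEFs, an 80.6-fold difference, while Dnmt3a had 109.6 and 128 ppm in ESCs and 50.9 and 44.3 in MEFs and the maintenance enzyme Dnmt1 414 and 362 ppm in ESCs and 614 and 610.3 in MEFs. Dnmt3l, the cofactor without catalytic activity, is listed for ESCs alone at 70.6 and 58.1. Zfp57, which guards methylation at imprints, had 414 and 390.2 ppm in ESCs and 32.4 and 32.6 in MEFs.

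Of 25 Polycomb and BAF subunits, 3 were called higher in ESCs and 1 in MEFs, beside 7.38% of all genes in either direction, and the median log2 difference was 0.32. Cbx7, the chromodomain protein typical of PRC1 in ESCs, had 76.3 and 80.5 ppm in ESCs and 0.672 and 1.24 in MEFs. Also called higher in ESCs were 2 accessory subunits of PRC2: Jarid2 had 431 and 381 ppm in ESCs and 22.3 and 21.9 in MEFs, and Mtf2 had 645 and 750.1 ppm in ESCs and 74.8 and 79.3 in MEFs. Core subunits were closer, as Ezh2 had 259 and 208 ppm in ESCs and 179 and 191 in MEFs and Suz12 703 and 807 ppm in ESCs and 299 and 305 in MEFs. Phc2, the polyhomeotic protein of somatic PRC1, was called higher in MEFs with 142 and 129 ppm in MEFs and 12 and 9.15 in ESCs. Its paralogue Phc1 lay the other way without a call, at 178 and 174 ppm in ESCs and 32.4 and 28.2 in MEFs. The BAF ATPase Smarca4 (BRG1) was near equal, with 492 and 420.2 ppm in ESCs and 504 and 474 in MEFs, and Smarca2 (BRM) had 77 and 75.3 ppm in MEFs and 12.4 and 10.9 in ESCs, 6.55-fold apart and not called.

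Epithelial adhesion genes gave few calls, and many are listed for ESCs alone. Of 26 adhesion genes, 12 have values in both tables and 1 was called higher in ESCs, beside 3.35% of all genes. It was Spint2, a serine protease inhibitor, with 33.1 and 24.9 ppm in ESCs and 1.18 and 0.678 in MEFs. The other 11 were not called. The median log2 difference of the 12 was 1.62. Another 14 are listed for ESCs alone, 8 of them at 7 ppm or more. Cdh1 (E-cadherin) led these with 978 and 981 ppm, and Epcam had 38.5 and 34.9. Esrp2, a splicing regulator of epithelia, had 12 and 10.8 ppm in ESCs and 0.784 and 1.07 in MEFs and was not called. Of 11 laminin chains 2 were called higher in ESCs and 1 in MEFs, beside 3.35% and 4.04% of all genes. Their median log2 difference was -0.16. Lama1, the alpha chain of the early embryo, had 96.3 and 105 ppm in ESCs and 0.392 and 0.169 in MEFs and Lama3 52 and 55.2 ppm in ESCs and 0.28 and 0.339 in MEFs, both called higher in ESCs. Lama2, the chain of muscle and mesenchyme, was called higher in MEFs with 18.8 and 18.5 ppm in MEFs and 0 and 0.166 in ESCs. The alpha chain Lama5 was not called, with 175 and 169 ppm in ESCs and 270 and 234 in MEFs, nor was Lama4, with 2.01 and 1.75 ppm in ESCs and 1.01 and 0.96 in MEFs. The shared gamma chain Lamc1 had 895 and 755 ppm in ESCs and 465 and 434 in MEFs and was not called. Nid2, a nidogen that links laminin to collagen IV, was the one matrix glycoprotein called higher in ESCs, with 386 and 461 ppm in ESCs and 10.4 and 9.71 in MEFs.

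Metabolic, imprinted and germline genes added further ESC calls. The glycine cleavage system feeds one-carbon units, and 2 of its parts were called: Gldc had 85.7 and 77.9 ppm in ESCs and 1.12 and 0.621 in MEFs, and Amt had 56.5 and 44.8 ppm in ESCs and 2.57 and 1.92 in MEFs. Tdh, threonine dehydrogenase, on which mouse ESCs depend, is listed for ESCs alone at 168 and 171. The cationic amino acid transporter Slc7a3 had 41.3 and 44.2 ppm in ESCs and 0.56 and 0.339 in MEFs. Of the 16 genes of this list with values in both tables, 3 were called higher in ESCs, beside 3.35% of all genes, and 13 were not called. Of 15 imprinted genes 5 were called higher in ESCs and none in MEFs, beside 3.35% and 4.04% of all genes. Their median log2 difference was 1.63. The amino acid transporter Slc38a4 had 238 and 284 ppm in ESCs and 2.02 and 2.37 in MEFs, the zinc finger gene Plagl1 225 and 276 ppm in ESCs and 4.37 and 4.24 in MEFs, and Snrpn, of the Prader-Willi region, 51.8 and 57.4 ppm in ESCs and 3.41 and 4.18 in MEFs. Mest had 24.3 and 21.8 ppm in ESCs and 0.56 and 1.02 in MEFs and Peg12 12.7 and 10.4 ppm in ESCs and 0.112 and 0.0565 in MEFs. Grb10, an adaptor that restrains growth, lay toward MEFs without a call, with 497 and 466 ppm in MEFs and 87.1 and 104 in ESCs. Of 10 germline genes with values in both tables, 1 was called higher in ESCs, beside 3.35% of all genes. It was Prdm1, with 27 and 33.4 ppm in ESCs and 0 in both MEF libraries, at least 179-fold higher. Of the 11 germline genes listed for ESCs alone, 7 reached 7 ppm in both libraries, among them Tfap2c at 124 and 136 and Dazl at 30.9 and 34.8.

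Zinc finger genes formed 2 dense groups of ESC calls on the chromosomes. On chromosome 4 between 145510759 and 148088031 (GRCm38), 14 of 24 compared genes were called higher in ESCs, neighbouring calls starting less than 500000 bases apart, and 11 of the 13 with a Zfp symbol were among them. Zfp990 there had 417 and 398 ppm in ESCs and 1.79 and 1.64 in MEFs, and Zfp978 had 246 and 258 ppm in ESCs and 0.56 and 0.734 in MEFs. On chromosome 7 between 42473386 and 43618285, 7 of 15 genes were called, 6 of 9 with a Zfp symbol among them. Zfp936 in that group had 317 and 333 ppm in ESCs and 0.056 and 0 in MEFs. Each range starts and ends at a called gene, so a high share of calls inside it follows from how it was drawn. Another 6 (chromosome 4) and 2 (chromosome 7) protein-coding genes in these ranges are listed in 1 table alone. Other runs of 4 ESC calls, on chromosomes 7 and 8, held 0 genes with a Zfp symbol. Over all chromosomes 32 of 355 genes with a Zfp symbol (9.01%) were called higher in ESCs and 8 (2.25%) in MEFs, beside 3.35% and 4.04% of all genes. Many of these genes are near-identical copies whose reads can be split between neighbours, so the level of a single one is uncertain.

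On the MEF side the extracellular matrix carried the largest gaps. Of 18 collagen chain genes in both tables, 8 were called higher in MEFs and 1 in ESCs, beside 4.04% and 3.35% of all genes. Their median log2 difference was -2.01, and 9 more are listed for MEFs alone. Col1a1, the major fibrillar collagen, had 847 and 745 ppm in MEFs and 0.883 and 0.749 in ESCs, a 976-fold difference. Its partner Col1a2 is listed for MEFs alone at 592 and 541, and Col3a1 at 358 and 349.6. Col6a3, of the beaded-filament collagen, had 1486 and 1315 ppm in MEFs and 0.0802 and 0.25 in ESCs, Col12a1, which coats fibrils, 788 and 749 ppm in MEFs and 0.0802 and 0.25 in ESCs, and Col5a2 509 and 460.3 ppm in MEFs and 0.642 and 0.749 in ESCs. The basement membrane chain Col4a1 differed by less, with 419.6 and 380.2 ppm in MEFs and 27 and 22.5 in ESCs. Col9a2, a cartilage and eye collagen, was the one called higher in ESCs, with 14.1 and 10.4 ppm in ESCs and 0.28 and 0.226 in MEFs.

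Enzymes that finish collagen were called higher in MEFs in 5 of 20 cases, beside 4.04% of all genes, and the other 15 were not called. The crosslinking oxidase Loxl4 had 97.7 and 80.8 ppm in MEFs and 1.28 and 1.16 in ESCs, and Lox itself is listed for MEFs alone at 300.1 and 294. Fkbp10, a collagen chaperone of the endoplasmic reticulum, had 151 and 135 ppm in MEFs and 3.61 and 2.41 in ESCs, and the procollagen protease Bmp1 had 43.8 and 36.8 ppm in MEFs and 1.69 and 1.33 in ESCs. The chaperone Serpinh1 was not called, with 306 and 284 ppm in MEFs and 55.6 and 45.3 in ESCs. Of 5 small leucine-rich proteoglycans in both tables, 1 was called higher in MEFs, beside 4.04% of all genes, and 4 were not called. Another 4 are listed for MEFs alone, 0 of them at 7 ppm or more. The called gene was Bgn (biglycan, ENSMUSG00000031375, chrX:73483602-73495933 on GRCm38). Bgn showed the largest gap of any gene toward MEFs, with 2213 and 1996 ppm in MEFs and 0.0802 and 0.25 in ESCs. Aspn, its relative, had 42 and 49.6 ppm in MEFs and 5.86 and 6.32 in ESCs and was not called.

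Of 26 matrix glycoproteins in both tables, 11 were called higher in MEFs, beside 4.04% of all genes. The median log2 difference of the 26 was -2.64. Thbs1, thrombospondin 1, had 1713 and 1512 ppm in MEFs and 0.321 and 0.166 in ESCs. The microfibril gene Fbn1 had 520.1 and 475 ppm in MEFs and 3.69 and 4.41 in ESCs, and the TGF-beta binding protein Ltbp2 476 and 393 ppm in MEFs and 1.2 and 0.749 in ESCs, 445-fold apart. The matricellular YAP targets Cyr61 and Ctgf had 505 and 449.8 ppm in MEFs and 16.7 and 15.6 in ESCs and 409 and 348 ppm in MEFs and 19.7 and 19.9 in ESCs respectively. Tnc, tenascin C, is listed for MEFs alone at 456 and 394. Fibronectin was abundant in both, as Fn1 had 3280.0 and 2912 ppm in MEFs and 2012 and 2186 in ESCs, and Sparc had 643 and 616 ppm in MEFs and 404 and 541 in ESCs, neither called. Proteases and their inhibitors gave 8 calls of 14, all higher in MEFs, beside 4.04% of all genes, and their median log2 difference was -3.87. Timp3, a matrix-bound inhibitor, had 761 and 687 ppm in MEFs and 1.93 and 4.08 in ESCs, and Timp2 had 485 and 462 ppm in MEFs and 3.13 and 2 in ESCs. The plasminogen activator Plau had 34.7 and 34.6 ppm in MEFs and 0.16 and 0.25 in ESCs. The membrane protease Mmp14 stood at 266 and 238 ppm in MEFs and 13 and 17.8 in ESCs. Mmp3 and Mmp13, secreted metalloproteases, are listed for MEFs alone at 1524 and 1524 and 975 and 969.

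Transcription factors of mesenchyme were called higher in MEFs in 14 of 32 cases and in ESCs in 0, beside 4.04% and 3.35% of all genes. Their median log2 difference was -2.92. Zeb2, a repressor of E-cadherin, had 207 and 214 ppm in MEFs and 0.883 and 1.08 in ESCs, and Runx2, the factor of bone-forming mesenchyme, 126 and 117 ppm in MEFs and 0.0802 and 0.665 in ESCs. Foxc1 had 118 and 111 ppm in MEFs and 0.802 and 0.832 in ESCs, Sox9 67.9 and 65.6 ppm in MEFs and 0.481 and 0.333 in ESCs, and Twist1 83.2 and 83 ppm in MEFs and 2.89 and 2.74 in ESCs. Foxf2 was at 0 in both ESC libraries against 33.4 and 31.2 ppm in MEFs, at least 132-fold higher. Prrx1, a limb and craniofacial mesenchyme factor, is listed for MEFs alone at 925 and 934. Zeb1 was less far apart than Zeb2, with 186 and 189 ppm in MEFs and 68 and 73.2 in ESCs, and was not called. Tcf4 had 163 and 166 ppm in MEFs and 82.4 and 106 in ESCs, also without a call.

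Hox genes, which encode position along the body axis, differed by cluster. Of 24 with values in both tables, 4 were called higher in MEFs and 2 in ESCs, beside 4.04% and 3.35% of all genes. Their median log2 difference was 0.60. The MEF libraries held genes of the posterior end of the Hoxa cluster and Hoxd13. Hoxd13, the most posterior Hoxd gene, had 139 and 134 ppm in MEFs and 1.77 and 2.58 in ESCs. In the Hoxa cluster, Hoxa13 had 38 and 35.9 ppm in MEFs and 0.321 and 0.832 in ESCs, Hoxa10 37.6 and 34.1 ppm in MEFs and 0.481 and 0.416 in ESCs and Hoxa9 22.9 and 21.1 ppm in MEFs and 0.642 and 0.749 in ESCs, and Hoxa11 is listed for MEFs alone at 44.8 and 40.6. Hoxa7 missed the call, with 38.6 and 39.9 ppm in MEFs and 3.29 and 4.24 in ESCs. Genes of the Hoxc cluster had at most 0.168 ppm in a MEF library, and those of the Hoxb cluster with a MEF value at most 0.169. ESCs held low levels at the posterior end of Hoxc: Hoxc13 had 16.6 and 23 ppm and Hoxc12 7.38 and 16.6, with both MEF libraries at 0, at least 117-fold and 71.2-fold higher.

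**Figure D3:**
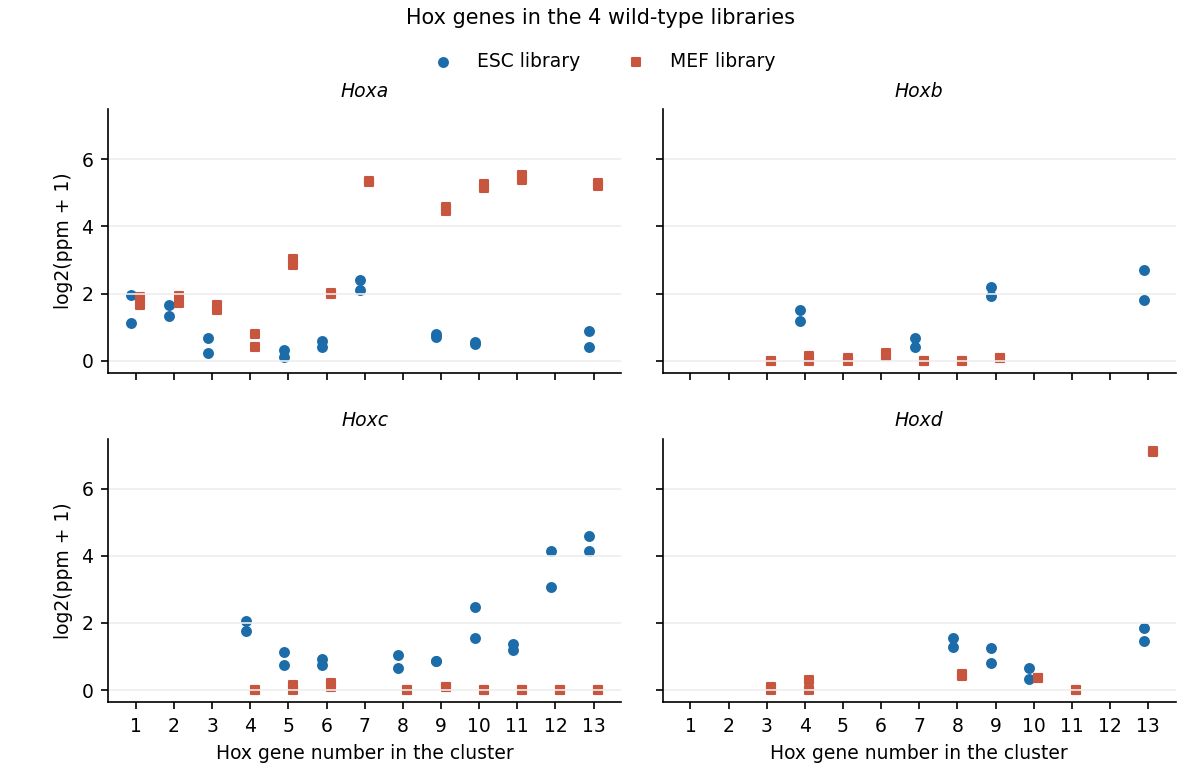
Levels of the Hox genes in each library, as log2(ppm + 1), by cluster and by number within the cluster (blue circles, ESC libraries; red squares, MEF libraries). A gene with no point for a cell type has no value in its table; the high MEF values lie in Hoxa from Hoxa7 to Hoxa13 and at Hoxd13.

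Contractile genes were called higher in MEFs in 7 of 25 cases and in ESCs in none, beside 4.04% and 3.35% of all genes. Their median log2 difference was -2.22. Acta2, alpha smooth muscle actin, had 885 and 922 ppm in MEFs and 0.16 and 0.749 in ESCs, where the first value lies under the floor of 3 deposited units. Myl9, a regulatory myosin light chain, had 218 and 219 ppm in MEFs and 2.01 and 2.16 in ESCs, and the tropomyosin Tpm2 had 189 and 204 ppm in MEFs and 7.46 and 4.82 in ESCs. Cnn1 and Cnn2, calponins that bind actin filaments, had 28.7 and 28.4 ppm in MEFs and 0.562 and 0.749 in ESCs and 266 and 233 ppm in MEFs and 23.4 and 24 in ESCs. Acta1, skeletal muscle actin, had 27.8 and 24.8 ppm in MEFs and 0.16 and 0.499 in ESCs. Tagln, a common smooth muscle marker, was low in both, with 4.37 and 4.74 ppm in MEFs and 0.481 and 0.0832 in ESCs. Srf, the factor that drives many of these genes, had 119.9 and 108 ppm in MEFs and 25.8 and 21.8 in ESCs, and its coactivator Mkl1 83.3 and 81.3 ppm in MEFs and 24.9 and 24.2 in ESCs, neither called.

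The bases before the starts of Myl9, Acta1 and Cnn2 are shown because each holds a CArG box, the site of SRF, spelled here as CC, then 6 letters each A or T, then GG. They are from the same RefSeq table on GRCm38.p6, on the strand of the gene, at chr2:156775214-156775413 (Myl9, + strand), chr8:123894776-123894925 (Acta1, - strand) and chr10:79988450-79988579 (Cnn2, + strand). Capitals mark the box, which begins 161, 73 and 56 bases before the annotated start, and the windows of Myl9 and Cnn2 end 50 and 20 bases short of it.
Myl9: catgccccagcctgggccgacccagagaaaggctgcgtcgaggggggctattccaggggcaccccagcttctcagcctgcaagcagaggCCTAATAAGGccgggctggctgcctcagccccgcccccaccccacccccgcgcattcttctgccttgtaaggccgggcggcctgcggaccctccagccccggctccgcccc
Acta1: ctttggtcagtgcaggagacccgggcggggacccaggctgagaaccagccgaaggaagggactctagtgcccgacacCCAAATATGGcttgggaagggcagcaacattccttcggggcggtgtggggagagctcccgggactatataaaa
Cnn2: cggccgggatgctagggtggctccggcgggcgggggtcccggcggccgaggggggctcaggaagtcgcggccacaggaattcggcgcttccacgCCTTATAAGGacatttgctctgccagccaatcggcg
Within the 250 bases before the start, a CArG box on either strand was found in 9 of 397 genes higher in MEFs that have an entry (2.27%), in 4 of 319 genes higher in ESCs (1.25%) and in 118 of all 9986 (1.18%). The 9 were Myl9, Fhl2, Eml1, Fhl1, Acta1, Dusp5, Lama2, Cnn2 and Prune2. This motif too was chosen after the levels were seen. The other contractile genes called higher in MEFs have no match in this window or no entry. Matches among genes that were not called are counted in the 118 but were not named, so contractile genes without a call may hold a box.

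Filament and caveola genes gave further calls. Vim (vimentin), the intermediate filament of mesenchyme, had 7065 and 7339 ppm in MEFs and 251 and 334 in ESCs, and per kilobase of exon it was among the 12 highest genes of the MEFs, at 1518 ppm per kilobase against 61.7 in ESCs. Lmna, the A-type lamin, had 893 and 806 ppm in MEFs and 34.1 and 34 in ESCs, while Lmnb1, a B-type lamin, was not called and lay the other way with 1272 and 1198 ppm in ESCs and 307 and 308 in MEFs. Keratin 8 (Krt8) was low in both, with 8.43 and 7.65 ppm in ESCs and 0.504 and 0.282 in MEFs. Of 5 caveola genes 4 were called higher in MEFs, beside 4.04% of all genes. Cavin2 had 721 and 763 ppm in MEFs and 0.0802 and 0.0832 in ESCs and Cavin1 994 and 952 ppm in MEFs and 21.8 and 18 in ESCs, and Cav1 is listed for MEFs alone at 487 and 526. Of 16 integrin subunits 2 were called, both higher in MEFs, beside 4.04% of all genes, and the median log2 difference was -1.62. Among the 14 not called, the common beta chain Itgb1 had 1488 and 1450.4 ppm in MEFs and 306 and 333 in ESCs and Itgav 912 and 833 ppm in MEFs and 133 and 155 in ESCs. The collagen receptor chains Itga2 and Itga1 were called higher in MEFs, with 31.2 and 25.6 ppm in MEFs and 0.0802 and 0.582 in ESCs (Itga2) and 14.4 and 10.7 ppm in MEFs and 0.321 and 0.416 in ESCs (Itga1).

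Receptors gave calls in both directions, and secreted growth factors and cytokines only toward MEFs. Of 22 receptors 9 were called higher in MEFs and 2 in ESCs, beside 4.04% and 3.35% of all genes. Their median log2 difference was -1.66. Axl, a TAM-family kinase, had 502 and 465 ppm in MEFs and 3.85 and 3.83 in ESCs, and Pdgfra, the PDGF receptor of mesenchyme, 214 and 211 ppm in MEFs and 3.13 and 3.24 in ESCs. Met, the receptor of hepatocyte growth factor, had 216 and 212 ppm in MEFs and 7.62 and 6.07 in ESCs, and Tgfbr2 98.5 and 95 ppm in MEFs and 1.69 and 0.832 in ESCs. Toward ESCs stood Erbb3 with 38.8 and 37.9 ppm in ESCs and 0.056 and 0.226 in MEFs and Eng with 28.6 and 22.5 ppm in ESCs and 1.34 and 1.52 in MEFs. Kit, the receptor of stem cell factor, is listed for ESCs alone at 402 and 449. Among secreted factors, 9 of 19 were called higher in MEFs and none in ESCs, beside 4.04% and 3.35% of all genes. Their median log2 difference was -3.07. Csf1, the macrophage growth factor, had 562 and 513 ppm in MEFs and 0.642 and 0 in ESCs, Inhba, the activin A subunit, 487 and 481 ppm in MEFs and 0.481 and 0.998 in ESCs, and Fgf7 141 and 152 ppm in MEFs and 0 and 0.416 in ESCs. Bmp4 had 67.6 and 70.2 ppm in MEFs and 2.57 and 2.41 in ESCs. Grem1, a BMP antagonist, is listed for MEFs alone at 724 and 707, and Il1rl1, the interleukin-33 receptor, headed the genes listed for MEFs alone with 1746 and 1709. Of IGF binding proteins, Igfbp2 was called higher in ESCs, with 167 and 104 ppm in ESCs and 0.112 and 0 in MEFs, and Igfbp7 in MEFs, with 31.6 and 32.9 ppm in MEFs and 1.85 and 1.25 in ESCs.

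Some of the remaining 15 largest gaps toward MEFs belonged to none of these lists. Ptgs2 (COX-2), the inducible prostaglandin synthase, had 827 and 811 ppm in MEFs and 0.16 and 0.416 in ESCs. The hyaluronan receptor Cd44 had 742 and 741 ppm in MEFs and 0.562 and 0.998 in ESCs, and Nrn1 (neuritin) 576 and 589.5 ppm in MEFs and 0.16 and 0.0832 in ESCs. Sema3a, a secreted guidance cue, stood at 399 and 416 ppm in MEFs and 0.0802 and 0 in ESCs. The calcium-binding S100a6 had 613 and 646 ppm in MEFs and 1.28 and 0.333 in ESCs, and Anxa1 (annexin A1) 775 and 784 ppm in MEFs and 2.01 and 1.5 in ESCs.

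Cell cycle genes held calls in both directions. Of the interferon and MHC class I lists only Ifit2 and B2m were called, both higher in MEFs. Of 22 cyclins, inhibitors and Myc genes, 3 were called higher in MEFs and 1 in ESCs, beside 7.38% of all genes in either direction, and the median log2 difference was -0.03. Ccnd2, cyclin D2, had 326 and 309.6 ppm in MEFs and 0.321 and 0.25 in ESCs, and Myc 89.1 and 86.8 ppm in MEFs and 1.77 and 1.33 in ESCs. The third gene called higher in MEFs was Cdkn2c, a CDK inhibitor, with 29.7 and 32.8 ppm in MEFs and 1.69 and 1.33 in ESCs. Mycl was called higher in ESCs with 18.8 and 29.5 ppm in ESCs and 0.336 and 0.113 in MEFs and Mycn is listed for ESCs alone at 90 and 97.8. Cdkn2a had 94 and 90.6 ppm in MEFs and 21.5 and 16.1 in ESCs and Trp53 90.5 and 82.5 ppm in MEFs and 116 and 118 in ESCs, neither called. In the interferon list 1 of 16 was called, beside 7.38% of all genes in either direction. It was Ifit2, with 121 and 126 ppm in MEFs and 0.401 and 0.582 in ESCs. The median log2 difference of the 16 was 0.28, toward ESCs. Of 8 genes of MHC class I presentation 1 was called, beside 7.38% of all genes in either direction. It was B2m, the light chain, with 334 and 369 ppm in MEFs and 14.5 and 15.5 in ESCs, 23.5-fold higher in MEFs. The heavy chain gene H2-D1 was near equal, with 7.5 and 8.47 ppm in MEFs and 9.15 and 8.32 in ESCs. H2-K1, the other classical heavy chain gene listed, lay toward ESCs without a call, with 11.96 and 11.4 ppm in ESCs and 0.896 and 0.339 in MEFs. Reads of these heavy chain genes can be shared with similar genes. Lipa, lysosomal acid lipase, was the 1 called gene of 17 lysosomal genes, near the 7.38% of all genes in either direction, with 37.1 and 37.9 ppm in MEFs and 1.2 and 1.83 in ESCs. Ifit2, Lipa, Acta2 and Stambpl1 lie on chromosome 19 between 34192229 and 34576419, a range bounded by these calls, and they are the only 4 genes there with a value in both tables. Another 2 protein-coding genes in the range are listed in 1 table alone.

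Genes of basic cell functions were not called in either direction. In replication 0 of 33 genes were called (median log2 difference 0.35), in the proteasome core 0 of 14 (0.28), among common reference genes 0 of 13 (0.08), among cytoplasmic ribosomal proteins 0 of 80 (0.90) and among mitochondrially encoded proteins 0 of 7 (-0.23). These stand beside the 7.38% of all genes called in either direction. Of the genes under study in the series, Actb had 5794 and 5656 ppm in MEFs and 2918 and 2839 in ESCs, Actg1 381 and 454 ppm in ESCs and 321 and 320.3 in MEFs, and Fermt2 (Kindlin-2) 282 and 284 ppm in ESCs and 295 and 290.4 in MEFs, and none of them was called.

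**Figure D4:**
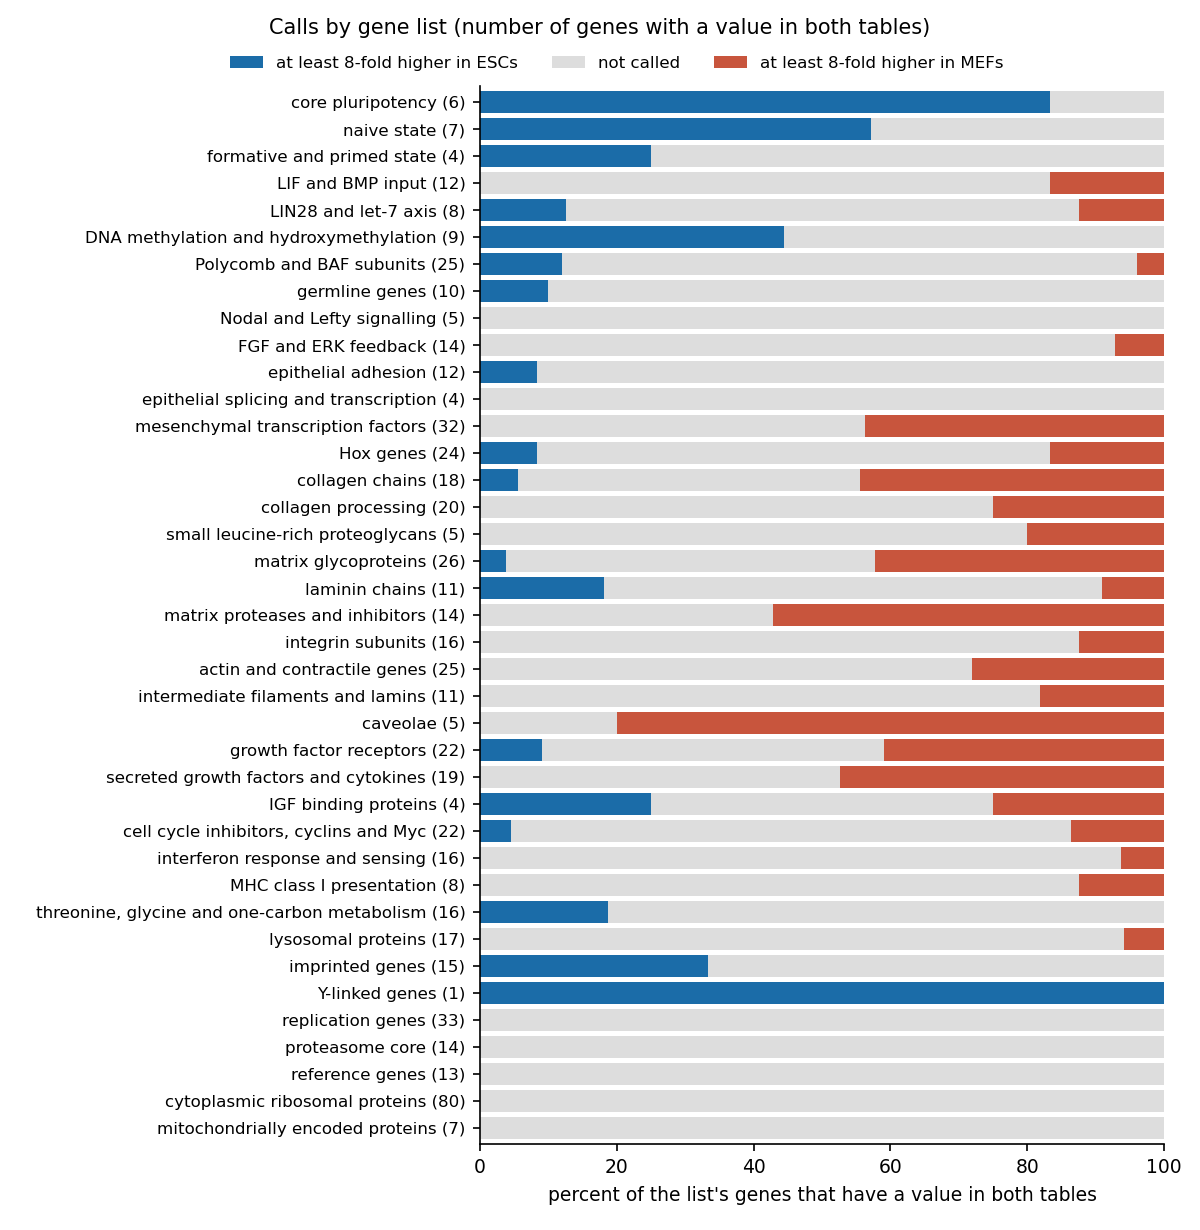
Percent of each gene list called higher in ESCs (blue), not called (grey) or called higher in MEFs (red), among the members with a value in both tables, whose number stands in brackets. Among the lists shown with 6 or more genes, the 2 pluripotency lists (core and naive) hold the largest blue shares, and the protease, secreted factor and collagen chain lists the largest red shares.

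Promoter composition of the called genes was set beside that of all genes. An entry in the promoter table was found for 319 of the 433 ESC genes, 397 of the 522 MEF genes and 9986 of all 12932. The median number of CG dinucleotides in the 250 bases before the start was 13 (ESC), 14 (MEF) and 16 (all), and fewer than 5 stood before 15.05%, 17.6% and 11.3% of the starts. TATAAA on the strand of the gene, 45 to 15 bases before the start, was found in 8 ESC genes (2.51%), in 11 MEF genes (2.77%) and in 1.12% of all. The 8 began with Tfcp2l1, Ckb and Aqp3 by size of gap, and the 11 with Anxa1, Hdac9 and Emp3. The AP-1 site TGANTCA, on either strand, was found in 5.33%, 5.04% and 4.10%. These shares are descriptions, with no test.

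Differences were also summarised by chromosome, as the median log2 difference of genes with a mean of at least 5 ppm, relative to the median of all such genes. Chromosome 8 stood at 0.39 over 555 genes, with 0.31 to 0.43 over the 4 pairs of an ESC and a MEF library, and chromosome 7 at 0.71 over 699 genes (0.66 to 0.73). The other 17 autosomes lay between -0.41 and 0.29. The chromosome 8 value was not shared by the other ESC libraries: against the same MEF libraries, the 4 ESC libraries with an Actb knockout or locus deletion had -0.03 to 0.08, and with all 12 libraries of both cell types the value was -0.0044. Against the wild-type ESCs, the wild-type MEF libraries had -0.39 and -0.37 on chromosome 8, the Actg1 locus deletion libraries -0.30 and -0.26, and the Actg1 knockout libraries -0.12 and -0.11. For chromosome 7 the mutant ESC libraries had 0.69 to 0.76, and with all 12 libraries the value was 0.54. Against the wild-type ESCs, the wild-type MEF libraries had -0.71 and -0.69 on chromosome 7 and the 4 Actg1 mutant MEF libraries -0.48 to -0.43. Chromosome 7 held 50 genes called higher in ESCs among 1001 (4.995%) and 22 called higher in MEFs (2.20%). Chromosome 8 held 25 genes called higher in ESCs among 707 (3.54%) and 26 called higher in MEFs (3.68%), beside 3.35% and 4.04% of all genes. What sets these medians was not tested.

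**Figure D5:**
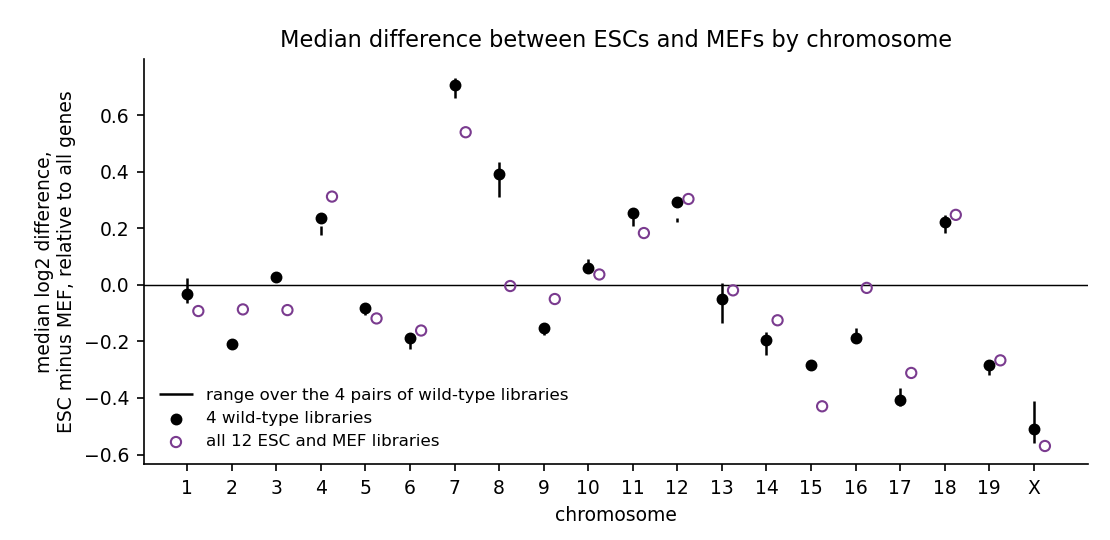
Median log2 difference (ESC minus MEF) of the genes of each chromosome with a mean of at least 5 ppm, relative to all such genes. Black points use the 4 wild-type libraries, bars give the range over the 4 pairs of libraries, and open circles use all 12 ESC and MEF libraries; chromosome 8 stands at 0.39 and -0.0044.

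The sex chromosomes differed as well. The X chromosome had a median of -0.51 over 316 genes (-0.56 to -0.41 over the pairs). Eif2s3y, a Y-linked translation factor gene, had 49.4 and 58.9 ppm in ESCs and 0.224 and 0.282 in MEFs, and the Y-linked genes Ddx3y and Uty are listed for ESCs alone at 137 and 128 and 71 and 85.4. The part of these chromosomes in other differences was not tested.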

How the data were processed

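RNA sequencing of total RNA was deposited as 1 table per cell type, and the ESC and MEF tables are used here. Tools named in the submitters' processing notes, with no role or order, are DESeq2 1.14.1, featureCounts 1.6.0 of Subread, STAR 2.5.3a and FastQC, with build mm10 (GRCm38). Per the labels' protocols, libraries came from a stranded kit for total RNA, so RNA without a poly(A) tail is included, and whether counting used the strand is not given in the sources used here. The deposited values are a score: whole numbers that look like read counts scaled by a factor of each library and then rounded, so no count test was used.

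From these, levels per 1000000 of the protein-coding sum (ppm) were computed for the 2 wild-type libraries of each cell type with Python 3.11.15, pandas 2.3.3 and numpy 2.4.6. The tables were normalised separately, so no test or p-value was computed between them: a call needs every library of one cell type at least 8-fold above every library of the other, with 1 ppm added. Gene positions and exon lengths are from GENCODE M21 on GRCm38, of the same build, and 7 genes have no position there. A floor of 3 deposited units is 0.241 and 0.250 ppm in the ESC libraries and 0.168 and 0.169 in the MEF libraries.

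Named genes are the 15 largest gaps in each direction, up to 6 genes per list by the size of the gap (every member of lists of 12 or fewer), the cell type markers, and Actb, Actg1 and Fermt2. Lists hold 791 entries in 48 lists, written by hand from textbook knowledge, and aliases and symbols that do not exist were removed. Genes named beyond this rule, those listed in 1 table alone and those named as not called, were chosen after their values were seen. The comparison, its lists and the genes were chosen with earlier results of these data known. Alternatives covered the added level, the scale, the fold, a minimum level, each library left out and all 12 ESC and MEF libraries.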

Additional observations from a re-analysis of the deposited data

How the results depend on the processing

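Calls depended on the fold and on the level added before it. With 0.25 ppm added, 654 genes were called higher in ESCs and 617 in MEFs, and with 4 added, 201 and 326. A fold of 4 gave 879 and 964, and a fold of 16 gave 221 and 289. Asking the same of all 12 ESC and MEF libraries gave 206 and 317. Setting genes of 1 table to 4 deposited units in the other, chosen after seeing the data, gave 720 and 651. Median-ratio scaling, which moves the median log2 difference by -0.11, gave 408 and 557, quantile normalisation 391 and 537, a scale without genes over 1% of a library 439 and 522, and a minimum mean of 5 ppm 420 and 519. Without 1 library the counts ran from 454 to 476 (ESC) and 527 to 574 (MEF). The chromosome 8 median was 0.47 at a minimum of 20 ppm and -0.0044 with all 12 libraries, also chosen after seeing the data, where the sign turned and the cause was not tested. It ran from 0.34 to 0.40 without 1 library and was 0.41 after quantile normalisation. Of 272 named genes with values in both tables, 128 were called. Another added level or a library left out cannot reverse a gene called by this rule, so these settings say nothing about direction. Under the other scales none of the 128 changed direction, where a reversal would need a shift of more than 8-fold. No paired analysis was possible because the comparison comes from no test and the numbers of libraries in different tables pair nothing.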

Other observations

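Non-coding genes lay outside the comparison and were scaled by the same protein-coding sums (ppm). Of 5527 in both tables, 36 (0.651%) were at least 8-fold higher in ESCs in every library and 13 (0.235%) in MEFs. Lncenc1, a long non-coding RNA named for naive embryonic cells, had 272 and 317 ppm in ESCs and 0.392 and 0.339 in MEFs. Next by gap was the pseudogene Gm13147, with 110.3 and 121 in ESCs and 1.46 and 0.621 in MEFs. Toward MEFs, 2610203C20Rik led, with 192 and 213 in MEFs and 0.802 and 1.91 in ESCs. Carmn, a long non-coding RNA of smooth muscle and heart, had 13.5 and 14.8 in MEFs and 0.160 and 0.166 in ESCs.

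Non-coding genes of imprinted regions and of the X chromosome also differed. H19, the maternally expressed neighbour of Igf2, had 16.05 and 13.1 ppm in ESCs and 0.616 and 0.339 in MEFs. The gap from its lowest ESC to its highest MEF library was 3.12 on the log2 scale, where 3 is the threshold. Meg3 was listed for ESCs alone, at 290 and 366. Xist, the RNA that coats the inactive X chromosome, had 165 and 161 in ESCs and 994 and 1068 in MEFs, a log2 difference of -2.65. Tsix, its antisense partner, was listed for ESCs alone at 33.5 and 39.7. Since the strand used in counting is not given, reads of Xist and Tsix cannot be told apart.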
